A study of Mus musculus with 45 samples.

Results

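Acyl-CoA synthetases and lipid peroxidation drivers were followed here as a set of 8 genes of the 57010 in the count table, chosen by symbol: Acsl1, Acsl3, Acsl4, Acsl5, Acsl6, Lpcat3, Por and Cyb5r1. All 8 are protein-coding genes, and each symbol matched 1 row of the table. Of these, 7 passed the filter on low counts and were tested. Acsl6, a long-chain acyl-CoA synthetase best known from brain, did not pass: it had 0 to 11 counts per library and 173 counts over all 45 libraries.

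Ferroptosis is a form of cell death in which polyunsaturated fatty acyl chains of membrane phospholipids are oxidized with the help of iron. Long-chain acyl-CoA synthetases (the ACSL family) join fatty acids to coenzyme A, a step that precedes their entry into membrane or storage lipids. ACSL4 prefers arachidonic and adrenic acid, and Lpcat3 encodes a lysophospholipid acyltransferase that puts such chains into phospholipids. ACSL3 is known for activating monounsaturated fatty acids and for its part in lipid droplet formation. ACSL1 was reported to mediate the killing of human breast cancer cells by conjugated linolenic acids, the class to which α-eleostearic acid belongs. POR passes electrons from NADPH to cytochromes P450, and CYB5R1 is a cytochrome b5 reductase that uses NADH. Both reductases have been reported to make hydrogen peroxide that feeds lipid peroxidation.

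The cells were primary mouse embryonic fibroblasts of wild-type (WT) genotype, a mixed culture of connective-tissue cells from embryos. They were uninduced, or made senescent with H2O2 at 200 µM or with etoposide, a topoisomerase II poison, at 2 µM. Either inducer was present for 24 h and was followed by 5 days of ordinary culture. In each of the 3 states, cells then received ethanol vehicle (EtOH), α-ESA (α-eleostearic acid, ESA), its methyl ester α-ESA-me (ESA-Me), or either compound after 1 h with ferrostatin-1 (Fer-1, a lipophilic radical trapper that blocks ferroptosis) at 2 µM. Exposure to the compounds lasted 12 h. The dose is uncertain: the sample labels state 2 µg/mL for either compound, but the protocol text has ESA at 10 µg/mL with ESA-Me at 20 µg/mL. Values for the compounds are therefore set side by side and were not compared. No group received Fer-1 alone. Each of the 15 groups had 3 libraries of total RNA, described as biological replicates.

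Total counts were 13.5 to 59.6 megareads per library. The 10 fibroblast markers were all detected, with a summed level of 34900 to 48800 CPM (counts divided by the TMM-scaled library size in megareads). That sum was led by Fn1 at 16300 to 30600 CPM, while Pdgfra was 0.755 to 8.76, Dcn 2.8 to 82.7 and S100a4 9.77 to 49.3 CPM. The 4 endothelial markers summed to at most 2.42 CPM. Within each state, libraries with the same replicate number deviated from their group means together (r across genes of 0.35 to 0.91), so each number is called a preparation of that state and entered the model as a block. Xist, transcribed from the inactive X chromosome, was 217 to 350 CPM in uninduced preparation 2 and at most 0.0968 in the other uninduced preparations. In H2O2-induced and etoposide-induced cells it was high in preparations 1 and 3, at 134 to 678 CPM, and at most 0.311 in preparation 2. Same-number libraries of these induced states also deviated together (r across genes of 0.66 to 0.81). Counts over preparations below therefore hold fewer independent tries than preparations. A single library stood apart: without the third etoposide vehicle library, ESA-Me against vehicle in etoposide-induced cells called 3357 genes in place of 46 and ESA against vehicle 1314 in place of 99. Member results whose call changed without it are given both ways.

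Seen per kilobase of exon, Cyb5r1 and Por were the most abundant members, with median levels over the 45 libraries of 26.7 and 21.7 CPM per kb. Acsl5 led the synthetases at 12.2 CPM per kb, ahead of Acsl4 at 5.19, Acsl3 at 3.16 and Acsl1 at 1.87. Lpcat3 stood at 9.96 and Acsl6 at 0.0158 CPM per kb. The synthetase with the highest RNA level in these fibroblasts was thus Acsl5.

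**Figure D1:**
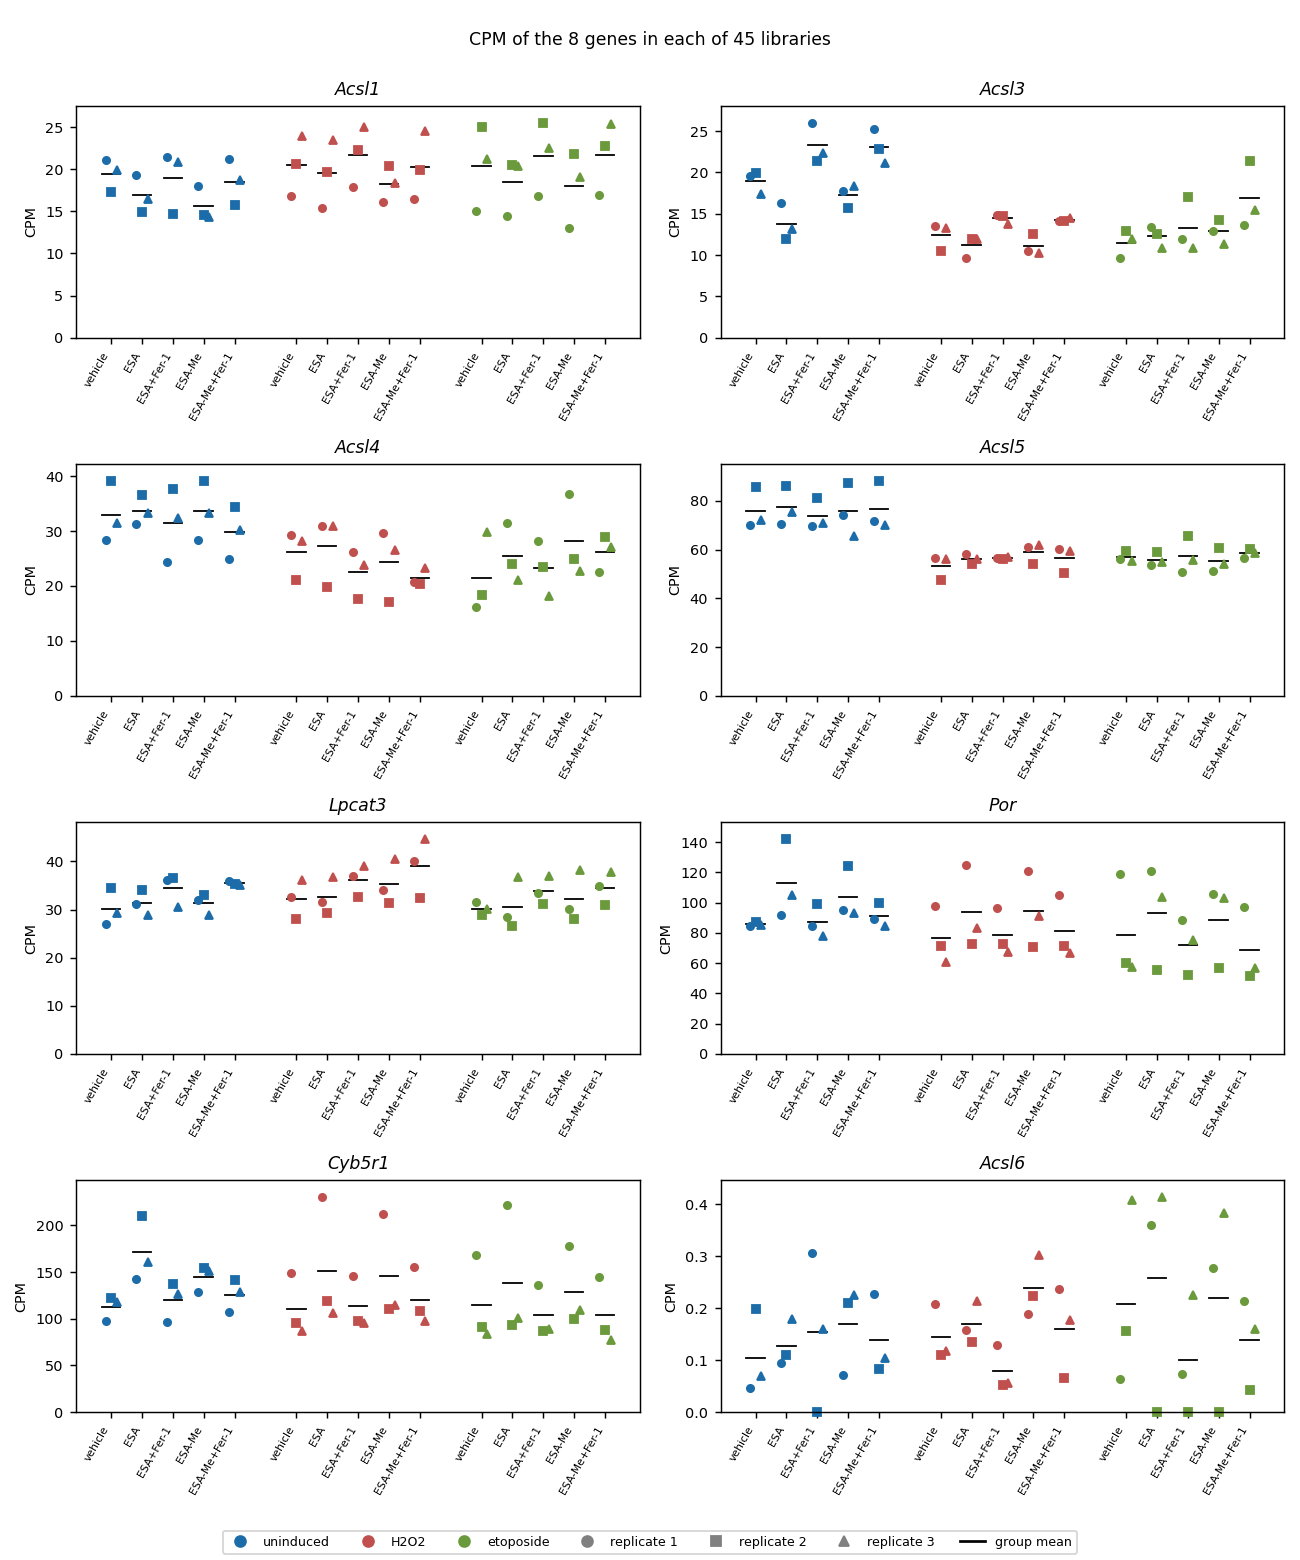
Level of each of the 8 genes (y axis, CPM on a linear scale from 0, a separate scale for each panel) in the 45 libraries, grouped along x by treatment within uninduced, H2O2 and etoposide cells. Marker shapes are replicate numbers and bars are group means of 3 libraries; Acsl5 group means were higher in uninduced cells under every treatment, while Cyb5r1 and Por separated by replicate number.

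The members varied for different reasons. On the log2(CPM + 1) scale, cell state took 76% of the spread (variance) of Acsl5 and 49.3% of that of Acsl3, against 6.06% for Cyb5r1 and 8.28% for Acsl1. Preparation within a state took 69% for Cyb5r1, 67.3% for Acsl1 and 59.5% for Por. Treatment within a state took its highest share for Acsl3, at 33.7%, then Lpcat3 at 28.3% and Cyb5r1 at 20.2%, and its lowest for Acsl5, at 2.24%. These shares describe the 45 libraries and were not tested.

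**Figure D2:**
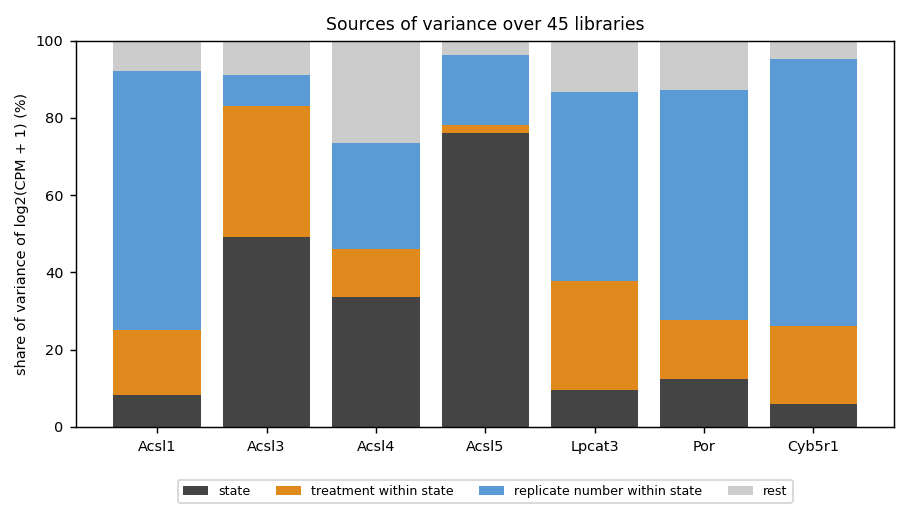
Share of the variance of log2(CPM + 1) over 45 libraries (y axis, %) taken by state, treatment within state, replicate number within state and the remainder, for the 7 tested genes. State took 76% for Acsl5, and replicate number took 69% for Cyb5r1.

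Cyb5r1 and Acsl3, the members called in the most comparisons, have unlike promoters. Cyb5r1 lies on chromosome 1 at 134405559 to 134411740 on the plus strand and Acsl3 on chromosome 1 at 78657825 to 78707743 on the plus strand (GENCODE M21 on GRCm38). The RefSeq windows of 300 bases around the transcription start (GRCm38.p6) are shown to let their composition be compared, with every CpG dinucleotide in capitals.
Cyb5r1 (chr1:134405531-134405830, plus strand): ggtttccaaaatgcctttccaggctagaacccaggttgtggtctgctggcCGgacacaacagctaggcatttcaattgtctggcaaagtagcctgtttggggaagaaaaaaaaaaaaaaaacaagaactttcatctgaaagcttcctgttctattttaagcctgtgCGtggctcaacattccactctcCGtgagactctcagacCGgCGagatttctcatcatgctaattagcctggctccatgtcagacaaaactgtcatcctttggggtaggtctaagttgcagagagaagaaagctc
Acsl3 (chr1:78657575-78657874, plus strand): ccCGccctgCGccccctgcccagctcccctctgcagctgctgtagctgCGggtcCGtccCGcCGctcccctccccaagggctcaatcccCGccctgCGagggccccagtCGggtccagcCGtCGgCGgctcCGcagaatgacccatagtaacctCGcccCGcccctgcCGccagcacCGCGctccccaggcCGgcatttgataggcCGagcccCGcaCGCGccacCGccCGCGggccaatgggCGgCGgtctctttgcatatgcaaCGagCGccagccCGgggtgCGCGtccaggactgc
The Acsl3 window held 33 CpG dinucleotides at 74% G+C and the Cyb5r1 window 5 at 45.7%, beside a median of 7 and 52.7% over 32851 promoters. GENCODE places the start of Cyb5r1 upstream of the RefSeq start, so this window is not centred on the GENCODE start. Searched on both strands, neither window held the antioxidant response element TGACNNNGC (the site of NRF2), which 12.4% of all promoters hold, or the sterol response element TCACNCCAC (bound by SREBP), which 1.24% hold. Nor did the windows of Acsl4, Acsl5, Lpcat3 or Por, although GENCODE starts of Acsl5 (chromosome 19, 55251938) and Por (chromosome 5, 135670033) lie outside and upstream of their windows. A sterol element match stood in 1 of the 2 Acsl1 promoters and an antioxidant element match in 1 of the 3 Acsl6 promoters.

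The first comparison asked how the conjugated fatty acid changed these genes in each state. With ESA, Cyb5r1 rose in uninduced and in H2O2-induced cells, Por rose in uninduced cells, and Acsl3 fell in uninduced cells. In uninduced cells 3 of the 7 tested members were called at an adjusted p under 0.05, 2 higher and 1 lower, beside 19.8% of all 16194 genes. The count was 1 member beside 1.48% of genes in H2O2-induced cells. In etoposide-induced cells edgeR's quasi-likelihood test called 0 members beside 0.611% of genes, with 1 member at an unadjusted p under 0.05 and 0 called by DESeq2. These shares move with single libraries. Of all genes, 1371 to 3096 in place of 3213 were called in uninduced cells when 1 library was left out, lowest without ESA replicate 2. The range was 12 to 392 in place of 240 in H2O2-induced cells (lowest without ESA replicate 1, highest without ESA replicate 2) and 7 to 1314 in place of 99 in etoposide-induced cells (lowest without ESA replicate 1, highest without vehicle replicate 3).

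Cyb5r1 in uninduced cells was 97.1, 122 and 118 CPM in vehicle replicates 1, 2 and 3 and 143, 210 and 161 CPM with ESA. Every ESA library was above every vehicle library. The log2 fold change was 0.60 ± 0.10 (SE; edgeR's quasi-likelihood test, adjusted p = 5.82e-05), a 1.51-fold increase. In H2O2-induced cells the levels were 149, 95.6 and 87 CPM in vehicle and 230, 119 and 106 CPM with ESA, so the groups overlapped although each preparation was higher with ESA. The log2 change there was 0.42 ± 0.10 (edgeR adjusted p = 0.0202). In etoposide-induced cells Cyb5r1 went from 168, 90.7 and 84.2 to 222, 93 and 101 CPM, a log2 difference of 0.24 ± 0.10 (edgeR adjusted p = 0.307). Cyb5r1 was higher with ESA in 9 of 9 preparations, by 0.04 to 0.78 in log2 CPM. The response of etoposide-induced cells was lower than that of uninduced cells by a log2 difference of -0.36 ± 0.13, which did not pass (edgeR adjusted p = 0.24).

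The Cyb5r1 calls rest on the pairing, as do nearly all calls of genes with ESA given above. Without the block the adjusted p (edgeR) was 0.531 in uninduced and 1 in H2O2-induced cells, with log2 differences of 0.61 and 0.46. The uninduced call held in all 6 refits that left out 1 library. The H2O2 call was lost without ESA replicate 1 (log2 0.30, adjusted p = 0.64, edgeR), vehicle replicate 1 (0.39, adjusted p = 0.219) or vehicle replicate 3 (0.41, adjusted p = 0.0902), and when the compared groups were fitted alone (0.41, adjusted p = 0.163).

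Acsl3 in uninduced cells was 19.6, 19.9 and 17.4 CPM in vehicle and 16.3, 12 and 13.1 CPM with ESA, without overlap. It fell by 0.47 on the log2 scale (SE 0.12; edgeR adjusted p = 0.00522), to 0.721 of the vehicle level. The call was lost without the block (edgeR adjusted p = 0.22), without vehicle replicate 2 (log2 -0.38, adjusted p = 0.0694) and without ESA replicate 2 (log2 -0.40, adjusted p = 0.067). In H2O2-induced cells the log2 difference was -0.16 ± 0.13, and in etoposide-induced cells 0.08 ± 0.13, neither called. The difference in response between etoposide-induced and uninduced cells was 0.55 ± 0.17 (edgeR adjusted p = 0.148). Without the third etoposide vehicle library it was 0.67 and passed (adjusted p = 0.0361, edgeR).

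Por in uninduced cells was 84.3, 87.4 and 85.6 CPM in vehicle and 91.6, 142 and 105 CPM with ESA. The log2 change of 0.37 ± 0.14 was close to the threshold (edgeR adjusted p = 0.0478). It failed without the block (edgeR adjusted p = 0.691) and when the compared groups were fitted alone (0.0768), and of the 6 refits without 1 library it passed in 1, that without ESA replicate 1. Across states, Por was higher with ESA in 8 of 9 preparations, with log2 differences of 0.27 ± 0.14 after H2O2 and 0.24 ± 0.14 after etoposide, neither called.

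Acsl1 was lower with ESA in 9 of 9 preparations, with differences of -0.29 to -0.03 in log2 CPM, and was not called in any state. In uninduced cells it was 21.1, 17.3 and 19.9 CPM in vehicle and 19.3, 14.9 and 16.5 CPM with ESA (log2 -0.21 ± 0.09; edgeR adjusted p = 0.0906). Acsl5, Lpcat3 and Acsl4 were not called with ESA either. The 95% intervals of their log2 differences in uninduced cells were -0.10 to 0.15, -0.10 to 0.21 and -0.31 to 0.39, the last being wide enough to hold a change as large as that of Por.

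**Figure D3:**
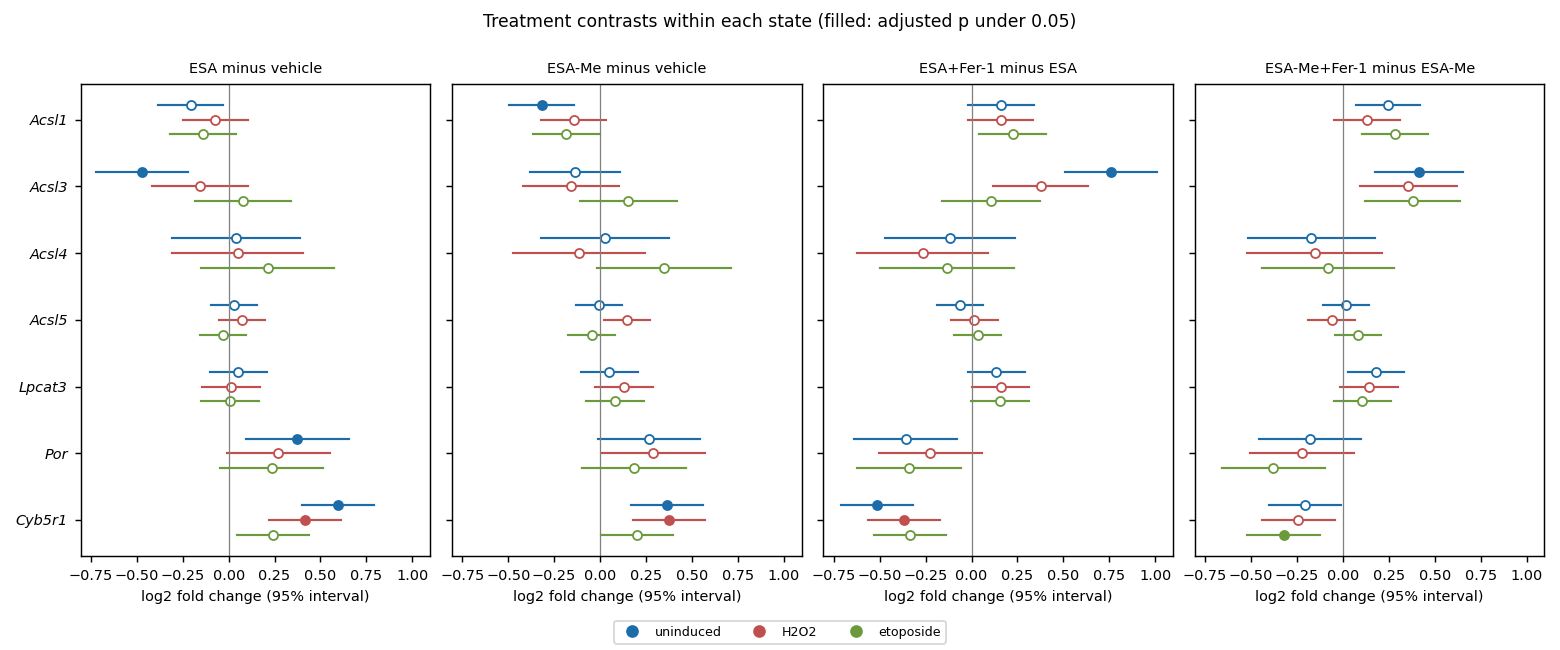
Log2 fold change (x axis) with its 95% interval for the 7 tested genes under 4 treatment contrasts, coloured by cell state and filled where the adjusted p was under 0.05 in the model with the replicate block. Cyb5r1 lies above 0 with either compound and below 0 when Fer-1 was added, and Acsl3 reaches 0.76 when Fer-1 was added to ESA in uninduced cells.

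The second comparison set the methyl ester against the same vehicle libraries, so its errors are shared with those above. Cyb5r1 rose in uninduced and H2O2-induced cells and Acsl1 fell in uninduced cells. This gave 2 members called in uninduced cells beside 1.64% of genes and 1 in H2O2-induced cells beside 0.908%. In etoposide-induced cells edgeR called 0 members beside 0.284% of genes, with 2 members at an unadjusted p under 0.05 and 0 called by DESeq2. When 1 library was left out, 3 to 152 genes in place of 266 were called in uninduced cells (lowest without vehicle replicate 2) and 4 to 339 in place of 147 in H2O2-induced cells (lowest without vehicle replicate 1, highest without ESA-Me replicate 2). None of the 3 member calls held without the block, where 0 of all genes were called in each state.

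Cyb5r1 with ESA-Me was 129, 154 and 151 CPM in uninduced cells, above all 3 vehicle libraries (log2 0.36 ± 0.09; edgeR adjusted p = 0.0431). In H2O2-induced cells it was 212, 110 and 115 CPM, overlapping vehicle (log2 0.38 ± 0.10; edgeR adjusted p = 0.0484). In etoposide-induced cells it was 178, 100 and 109 CPM (log2 0.20 ± 0.10; edgeR adjusted p = 0.378). As with ESA, all 9 preparations were higher than their vehicle. The uninduced call was lost in each of the 6 refits that left out 1 library (adjusted p of 0.093 to 0.318, edgeR), and the H2O2 call in 5 of 6 (0.021 to 0.473) and when the compared groups were fitted alone (0.0501).

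Acsl1, the synthetase reported to act on conjugated linolenic acids in human cells, was 18, 14.6 and 14.3 CPM with ESA-Me in uninduced cells against 21.1, 17.3 and 19.9 CPM in vehicle. Each preparation was lower, although the groups overlapped, and the gene fell by 0.32 on the log2 scale (SE 0.09; edgeR adjusted p = 0.0496). This call lies at the threshold. It was lost in all 6 refits without 1 library (adjusted p of 0.0703 to 0.323, edgeR), with median-ratio scaling (0.05), with no filter on low counts (0.183) and without the block (1). As with ESA, Acsl1 was lower in 9 of 9 preparations, with log2 differences of -0.14 ± 0.09 after H2O2 and -0.18 ± 0.09 after etoposide. With either compound, set against the same vehicle libraries, the direction was the same in every preparation while the size was small.

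Acsl3 with ESA-Me showed no called change, with log2 differences of -0.14 ± 0.12 (uninduced), -0.16 ± 0.13 (H2O2) and 0.15 ± 0.13 (etoposide). Por differences with ESA-Me were 0.26 ± 0.13, 0.29 ± 0.14 and 0.19 ± 0.14 in the same order. None passed in the fit of all libraries. From the compared groups alone, where 2073 genes were called in place of 266, Por passed in uninduced cells (log2 0.27, adjusted p = 0.0167, edgeR).

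The third comparison asked what Fer-1 did to these genes when it preceded a compound. Because it uses the same compound libraries as the comparisons with vehicle, a deviation in those libraries pushes both in opposite directions. With Fer-1, Acsl3 rose and Cyb5r1 fell. Added to ESA, Fer-1 gave 2 called members in uninduced cells beside 20.1% of genes and 1 in H2O2-induced cells beside 4.18%. In etoposide-induced cells edgeR called 0 beside 2.37%, with 3 members at an unadjusted p under 0.05 and 1 called by DESeq2 (Cyb5r1, log2 -0.33, adjusted p = 0.0227). Leaving out 1 library moved the count of all genes called to 1509 to 3038 from 3250 in uninduced cells (lowest without ESA replicate 2), to 62 to 836 from 677 after H2O2 (lowest without ESA replicate 1) and to 50 to 534 from 383 after etoposide (lowest without ESA plus Fer-1 replicate 1). For Fer-1 added to ESA-Me the ranges were 70 to 281 from 596 (lowest without ESA-Me replicate 2), 24 to 464 from 344 (lowest without ESA-Me plus Fer-1 replicate 1) and 90 to 1084 from 720 (lowest without ESA-Me plus Fer-1 replicate 3, highest without its replicate 2), in the same order of states.

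Acsl3 in uninduced cells was 16.3, 12 and 13.1 CPM with ESA and 26, 21.4 and 22.4 CPM with ESA and Fer-1. The groups did not overlap, and the log2 change was 0.76 ± 0.12 (edgeR adjusted p = 5.13e-05), a 1.69-fold increase. This was the only within-state call of a member that held without the block (edgeR adjusted p = 0.0349), and it held in all 6 refits that left out 1 library. In H2O2-induced cells Acsl3 went from 9.66, 11.9 and 12 to 14.9, 14.7 and 13.8 CPM, again without overlap, a log2 difference of 0.38 ± 0.12 that was not called (edgeR adjusted p = 0.083; DESeq2 adjusted p = 0.0441). In etoposide-induced cells the difference was 0.11 ± 0.13.

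Cyb5r1 fell by 0.51 on the log2 scale when Fer-1 preceded ESA in uninduced cells (SE 0.10; edgeR adjusted p = 0.000275), to 96.8, 137 and 127 CPM. In H2O2-induced cells it fell by 0.37 (SE 0.10; edgeR adjusted p = 0.0228), to 146, 98.1 and 95.4 CPM. The etoposide value was -0.34 ± 0.10 (edgeR adjusted p = 0.0551), at 136, 87.3 and 88.5 CPM. Cyb5r1 was lower in 9 of 9 preparations. Neither call held without the block (edgeR adjusted p = 0.586 and 1). Of all genes, 29 in place of 3250 were then called in uninduced and 3 in place of 677 in H2O2-induced cells. The H2O2 call was lost without ESA replicate 1 (log2 -0.25, adjusted p = 0.476) or without the first replicate of ESA plus Fer-1 (log2 -0.29, adjusted p = 0.283, edgeR), and when the compared groups were fitted alone (log2 -0.36, adjusted p = 0.241).

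**Figure D4:**
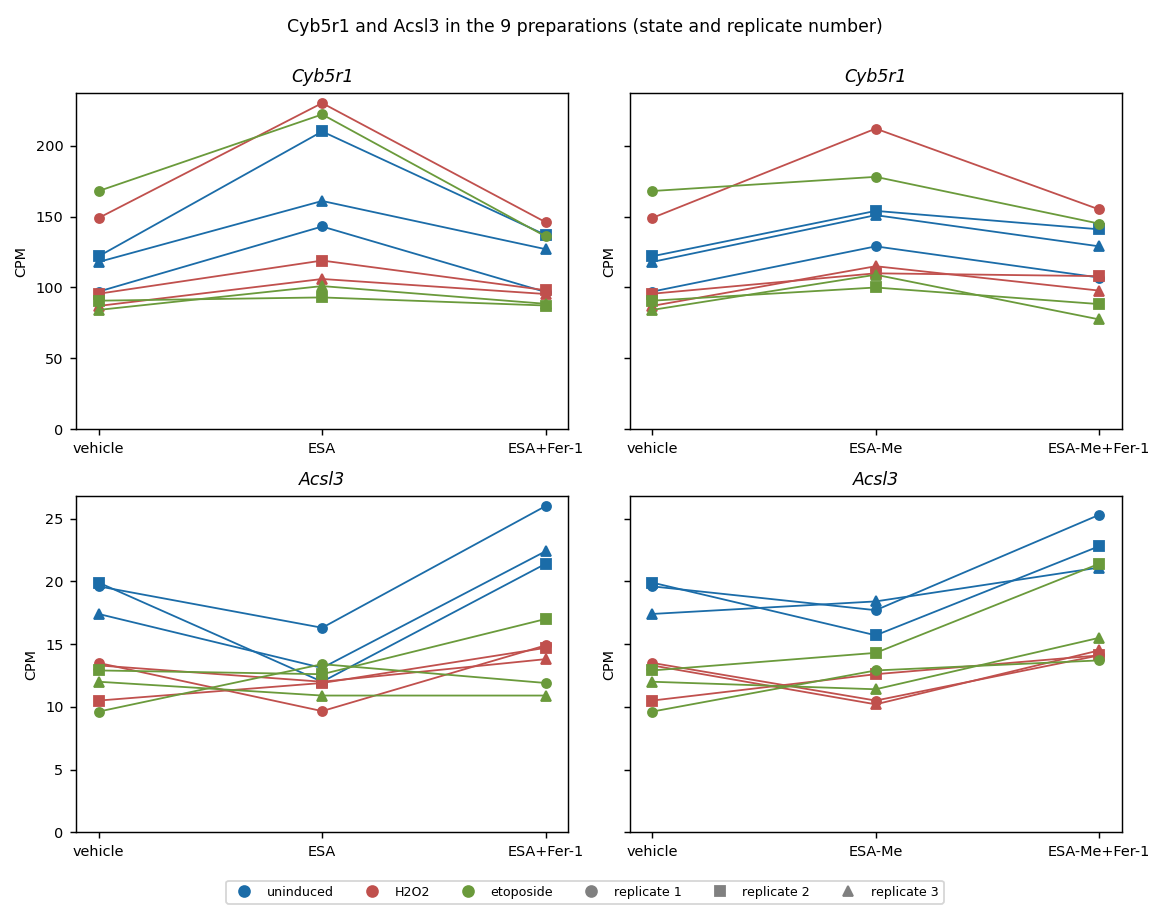
Level of Cyb5r1 (upper panels) and Acsl3 (lower panels) in CPM (y axis, linear from 0) in vehicle, compound, and compound with Fer-1 (x axis), for ESA on the left and ESA-Me on the right. Each line joins the libraries of 1 replicate number in 1 state; Cyb5r1 peaks with the compound in all 9 lines, and Acsl3 is higher with ESA-Me and Fer-1 than with ESA-Me in all 9.

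Added to ESA-Me, Fer-1 gave 1 called member in uninduced cells beside 3.68% of genes and 1 in etoposide-induced cells beside 4.45%. In H2O2-induced cells edgeR called 0 beside 2.12%, with 2 members at an unadjusted p under 0.05 and 0 called by DESeq2. Acsl3 in uninduced cells rose from 17.7, 15.7 and 18.4 to 25.3, 22.8 and 21.1 CPM (log2 0.42 ± 0.12; edgeR adjusted p = 0.04), without overlap. The values after H2O2 and etoposide were 0.36 ± 0.13 and 0.38 ± 0.12, not called by edgeR (adjusted p = 0.153 and 0.0764), while DESeq2 called the latter at the threshold (adjusted p = 0.05). Acsl3 was higher in 9 of 9 preparations. The uninduced call was lost in each of the 6 refits without 1 library (adjusted p of 0.0528 to 0.213, edgeR).

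Cyb5r1 in etoposide-induced cells fell by 0.32 when Fer-1 preceded ESA-Me (SE 0.10; edgeR adjusted p = 0.0455), from 178, 100 and 109 to 145, 88.3 and 77.5 CPM. This call held in 1 of 6 refits without 1 library, that without the second replicate of ESA-Me plus Fer-1, and was lost with no filter on low counts (0.0633) and when the compared groups were fitted alone (0.389). The differences in uninduced and H2O2-induced cells were -0.21 ± 0.09 and -0.24 ± 0.10 (edgeR adjusted p = 0.242 and 0.202). From the compared groups alone, where 3672 genes were called in place of 596, the uninduced difference passed (adjusted p = 0.00252, edgeR). Cyb5r1 was again lower in all 9 preparations. Without the block neither of the ESA-Me calls held (adjusted p = 1 and 0.999, edgeR). Of all genes, 0 in place of 596 were then called in uninduced and 1 in place of 720 in etoposide-induced cells.

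Por was lower with Fer-1 in 8 of 9 preparations after either compound and was not called in any state in the filtered fit of all libraries. Its log2 differences when Fer-1 preceded ESA were -0.36 ± 0.14 (uninduced), -0.22 ± 0.14 (H2O2) and -0.34 ± 0.14 (etoposide) (edgeR adjusted p = 0.0594, 0.401 and 0.191). With no filter on low counts Por passed after ESA in uninduced (adjusted p = 0.00783, edgeR) and etoposide-induced cells (0.0275) and after ESA-Me in etoposide-induced cells (0.0187). From the compared groups alone it passed in uninduced cells after ESA (0.0272) and ESA-Me (0.00923). Acsl1 was higher with Fer-1 in 8 of 9 preparations after either compound, with its highest log2 difference, 0.28 ± 0.09, after ESA-Me in etoposide-induced cells (edgeR adjusted p = 0.0557; DESeq2 adjusted p = 0.0411). That value passed in edgeR without replicate 2 of ESA-Me (adjusted p = 0.0478) or of ESA-Me plus Fer-1 (0.0142). From the compared groups alone Acsl1 passed after ESA-Me in uninduced cells (log2 0.24, adjusted p = 0.0236, edgeR). Acsl4 differed by -0.27 to -0.08 in the 6 contrasts, none called in the fit of all libraries. From the compared groups alone Acsl4 passed after ESA-Me in uninduced cells (log2 -0.18, adjusted p = 0.021, edgeR).

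Compound plus Fer-1 was next set against vehicle. In the filtered fit of all libraries no gene was called with ESA plus Fer-1 in any state (0% each). With ESA-Me plus Fer-1 none was called in uninduced or H2O2-induced cells (0% each) and 3 genes, 0.0185%, in etoposide-induced cells. At an unadjusted p under 0.05 there were 600, 390 and 676 genes for ESA plus Fer-1 in uninduced, H2O2-induced and etoposide-induced cells, and DESeq2 called 2, 0 and 0. For ESA-Me plus Fer-1 the unadjusted counts were 543, 643 and 1738, and DESeq2 called 0, 1 and 19. In etoposide-induced cells these counts rest on vehicle replicate 3, without which 1132 genes were called with ESA plus Fer-1 and 3890 with ESA-Me plus Fer-1. From the compared groups alone edgeR called 30, 205 and 0 genes with ESA plus Fer-1 and 140, 0 and 0 with ESA-Me plus Fer-1, in the same order of states. With no filter on low counts it called 13, 5 and 23, and 28, 37 and 362. The zeros thus depend on the fit. Of the members, edgeR called 0 in all 6 contrasts in the filtered fit of all libraries, with 1 or 2 at an unadjusted p under 0.05 in each. DESeq2 called 1, Acsl3 in etoposide-induced cells with ESA-Me plus Fer-1 (log2 0.54, adjusted p = 0.0244), which edgeR also called with no filter on low counts (adjusted p = 0.00438).

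Acsl3 in that contrast was 13.7, 21.4 and 15.5 CPM against 9.62, 12.9 and 12 CPM in vehicle, without overlap (log2 0.53 ± 0.12; edgeR adjusted p = 0.209). Without the third etoposide vehicle library the value was 0.66 and passed (adjusted p = 0.00309, edgeR). Por passed as lower in the same contrast without that library (log2 -0.40, adjusted p = 0.0226), against -0.19 ± 0.14 with it (adjusted p = 0.566, edgeR). Acsl3 was above vehicle with ESA-Me plus Fer-1 in 9 of 9 preparations and with ESA plus Fer-1 in 8 of 9.

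Lpcat3, the acyltransferase, was called in no comparison in the fit of all libraries, and its levels stayed between 26.6 and 44.6 CPM over the 45 libraries. From the compared groups alone it passed when Fer-1 was added to ESA-Me in uninduced cells (log2 0.17, adjusted p = 0.0299, edgeR). In uninduced cells it was 26.9, 34.4 and 29.2 CPM in vehicle, 36.1, 36.6 and 30.6 with ESA plus Fer-1, and 35.9, 35.4 and 35 with ESA-Me plus Fer-1. It was above vehicle in 9 of 9 preparations with either compound plus Fer-1, while with ESA alone it was higher in 4 and lower in 5. The log2 differences for compound plus Fer-1 against vehicle were 0.16 to 0.27, with unadjusted p of 0.00113 to 0.0424 and edgeR adjusted p of at least 0.431. The preparations of the induced states share numbers whose libraries also deviate together between H2O2 and etoposide (r across genes of 0.66 to 0.81), so 9 preparations are fewer than 9 independent tries.

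Whether the responses differed between induced and uninduced cells was tested directly. EdgeR called 0 members in all 4 tests. For ESA, 0.259% of genes were called for H2O2-induced against uninduced cells and 0.741% for etoposide-induced against uninduced cells. At an unadjusted p under 0.05 there were 0 and 2 members, Acsl3 and Cyb5r1 above, and DESeq2 called 0. For ESA-Me 0% of genes were called in either test, with 445 and 792 genes and 0 members at an unadjusted p under 0.05, and 0 genes by DESeq2. Calls of members in uninduced cells that were absent from induced cells are thus not shown to be particular to uninduced cells.

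The last comparison set vehicle-treated senescent cells against uninduced cells. Of the synthetases, Acsl3 and Acsl5 were lower after either inducer. This gave 2 lower and 0 higher members with H2O2 beside 17.5% of genes and 2 lower and 0 higher with etoposide beside 17.7%. Both inducers were set against the same 3 uninduced libraries, and uninduced and induced cells were not paired by replicate number. Induced cells had 24 h of inducer and 5 days of culture, and no such period is recorded for uninduced cells. Same-number libraries deviated together between the inducers (r of 0.66 to 0.81) but not between uninduced and induced cells (-0.306 to 0.0622). Inducer, culture time and preparations cannot be told apart here, and the 2 inducers are not independent repeats. The spread in these tests comes from all 45 libraries, which are correlated within a preparation.

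Acsl5 was 69.9, 85.6 and 72.3 CPM in uninduced vehicle cells, 56.5, 47.6 and 56.1 CPM after H2O2 and 56.3, 59.5 and 55.5 CPM after etoposide. All induced libraries were below all uninduced ones. It fell by 0.51 with H2O2 (SE 0.11; edgeR adjusted p = 0.000985) and fell by 0.41 with etoposide (SE 0.11; edgeR adjusted p = 0.00691) on the log2 scale. Over all 15 groups, the 5 uninduced groups had the highest means, 73.9 to 77.3 CPM, above the 10 induced groups at 53.4 to 59.1 CPM, and neighbours within either cluster did not differ beyond their spread. The etoposide call was lost without uninduced vehicle replicate 2 (log2 -0.32, adjusted p = 0.0795, edgeR) and with a replicate block added to the vehicle libraries (adjusted p = 0.0664). Acsl5 overlaps Zdhhc6 on the opposite strand, a gene with 43077 counts to 71489 of Acsl5, and the strand setting of the counting is not given in the sources used here.

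Acsl3 was 19.6, 19.9 and 17.4 CPM in uninduced vehicle cells, 13.5, 10.5 and 13.3 CPM after H2O2 and 9.62, 12.9 and 12 CPM after etoposide, again without overlap. It fell by 0.61 with H2O2 (SE 0.16; edgeR adjusted p = 0.00557) and fell by 0.72 with etoposide (SE 0.16; edgeR adjusted p = 0.00126). The H2O2 call was lost without H2O2 vehicle replicate 2 (log2 -0.50, adjusted p = 0.0556, edgeR) and with a replicate block added to the vehicle libraries (0.0575). The etoposide call held in all 6 refits. Acsl3 overlaps Utp14b on the same strand, with 3190 counts to 17239 of Acsl3, so reads there could have been split between them.

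**Figure D5:**
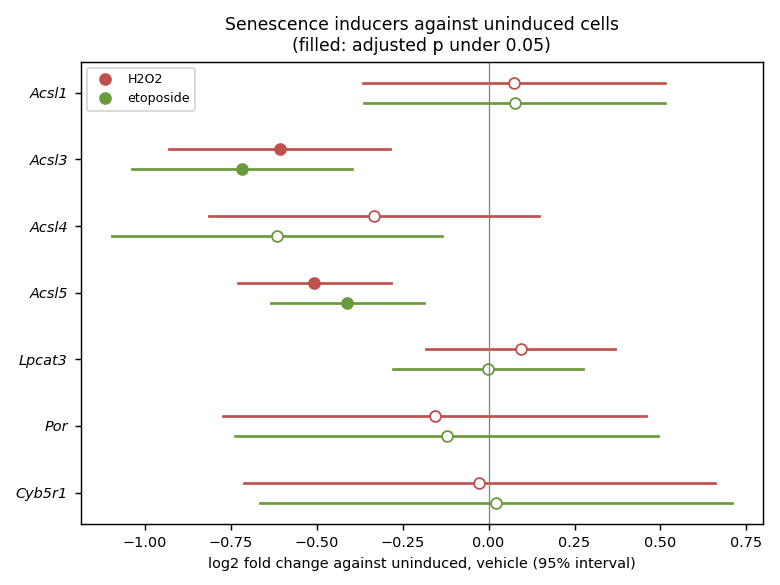
Log2 fold change of H2O2-induced and etoposide-induced against uninduced vehicle cells (x axis) with its 95% interval for the 7 tested genes, filled where the adjusted p was under 0.05. Acsl3 and Acsl5 lie below 0 with either inducer, while the intervals of Acsl1, Lpcat3, Por and Cyb5r1 span 0.

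Acsl4, the synthetase with the closest tie to ferroptosis, was 28.3, 39.1 and 31.4 CPM in uninduced vehicle cells, 29.3, 21 and 28.1 CPM after H2O2 and 16.1, 18.4 and 29.8 CPM after etoposide. The log2 differences were -0.33 ± 0.23 and -0.62 ± 0.24 (edgeR adjusted p = 0.367 and 0.0666; DESeq2 called the latter at 0.0487). Without the third etoposide vehicle library the etoposide value was -0.93 and passed (edgeR adjusted p = 0.0113). Without that same library Acsl4 also passed as higher in etoposide-induced cells with ESA (0.62, adjusted p = 0.0166), ESA-Me (0.75, adjusted p = 0.00205) and ESA-Me plus Fer-1 (0.70, adjusted p = 0.00377), where with it the values were 0.21, 0.35 and 0.27 and not called. Its calls in etoposide-induced cells thus depend on 1 library. Acsl4 lies on the X chromosome, and Xist was high in 1 of 3 uninduced and 2 of 3 induced preparations; the part of this in the differences was not tested.

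Cyb5r1, Por, Acsl1 and Lpcat3 were not called in senescence. Their log2 differences with H2O2 were -0.03 ± 0.34, -0.16 ± 0.30, 0.07 ± 0.21 and 0.09 ± 0.13. The wide errors of Cyb5r1 and Por reflect their spread between preparations: after etoposide, Por was 119, 60.4 and 57.4 CPM and Cyb5r1 168, 90.7 and 84.2 CPM, preparation 1 being the highest for both. Etoposide against H2O2 gave 0 called members and 0% of genes by edgeR, with 99 genes and 0 members at an unadjusted p under 0.05, and 0 genes by DESeq2. This contrast was not paired by replicate number, although same-number libraries of these states deviated together (r across genes of 0.66 to 0.81). Spread between preparations could thus hide differences between the inducers, and a fit pairing these states alone was not run. Markers of other cells moved with state too: the 5 epithelial markers summed to 20.5 to 38.2 CPM in uninduced and 2.29 to 8.55 CPM in induced libraries, where Krt19 alone reached 2 CPM in a group and Epcam, Cdh1 and Krt8 stayed at or below 0.378 CPM. The 3 skeletal muscle markers summed to 39.6 to 85.3 CPM in uninduced, 14.4 to 36.1 after H2O2 and 8.71 to 34.8 after etoposide, nearly all from Des, with Myod1 and Myog at or below 0.281 CPM. The 4 neural markers, led by Nes, summed to 635 to 1180 CPM in uninduced, 271 to 1690 after H2O2 and 302 to 1620 after etoposide, with Sox2 at or below 0.467 CPM. Their part in the differences was not tested.

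The wider pathway was read from 9 gene lists, whose counts stand beside 19.8% of all genes called with ESA in uninduced cells, 20.1% when Fer-1 was added there, and 17.5% and 17.7% with H2O2 and etoposide. These shares were lower in every refit without 1 library, with the counts for ESA and Fer-1 given above. In senescence such refits called 1811 to 2446 genes in place of 2834 with H2O2 and 1829 to 2538 in place of 2873 with etoposide. The first list held enzymes that make polyunsaturated fatty acids. Of 4 tested genes, 3 were lower and 1 higher with ESA in uninduced cells (list median -0.35, all genes -0.02), and 3 were higher when Fer-1 was added (median 0.35, all genes 0.02). Fads2, the delta-6 desaturase, fell by 0.62 and Fads1, the delta-5 desaturase, fell by 0.38 with ESA, and with Fer-1 they rose by 0.66 and 0.41 (edgeR adjusted p of 3.67e-05 to 0.000114). Elovl4, an elongase of very long chains, rose by 0.65 with ESA (adjusted p = 0.0138, edgeR). When Fer-1 preceded ESA-Me, Fads2 rose by 0.39 in uninduced and 0.39 in etoposide-induced cells. After H2O2 Fads2 changed by -0.90 and Fads1 by -0.43, and after etoposide Fads2 changed by -0.89, Elovl5 by -0.53 and Fads1 by -0.37. The medians of the other 8 lists with ESA in uninduced cells were -0.15 to 0.18.

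Among the 5 tested of 8 other acyl-CoA synthetases, 1 was higher and 1 lower with ESA in uninduced cells, where 19.8% of all genes were called. Acsbg1, a bubblegum-family synthetase of very long chains, rose by 1.92 with ESA and 1.18 with ESA-Me, and fell by 1.36 when Fer-1 preceded ESA (edgeR adjusted p = 3.23e-05, 0.0395 and 0.000989). It also fell with Fer-1 after ESA in H2O2-induced (-1.25) and etoposide-induced cells (-1.76). Slc27a3, a fatty acid transport protein, fell by 0.72 with ESA and rose by 0.76 when Fer-1 was added. Of 13 lysophospholipid acyltransferases 0 were higher and 2 lower with ESA in uninduced cells, Mboat1 at -0.49 and Mboat2 at -0.31, a count near the 19.8% of all genes. With Fer-1 added to ESA 3 were lower, Lclat1, Lpcat2 and Lpcat1 (-0.35 to -0.23). In senescence 3 of 13 were lower with either inducer, led by Mboat1, which fell by 2.08 with H2O2 and fell by 1.96 with etoposide, together with Lpcat1 and Agpat5, a count near the 17.5% and 17.7% of all genes.

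Among 9 listed electron transfer genes other than the members, not all of them microsomal, 1 was higher with ESA in uninduced cells, Ndor1 at 0.44, and none of the other 8 was called. In senescence 3 were higher and 1 lower with either inducer, beside 17.5% and 17.7% of all genes. Cyb5rl (0.90 and 0.91 with H2O2 and etoposide), Cyb5r3, a cytochrome b5 reductase (0.55 and 0.60), and Cyb5a, cytochrome b5 itself (0.50 and 0.57), rose, whereas the member Cyb5r1 was not called. Of 9 genes of triglyceride storage and lipid droplets, Soat1, which esterifies cholesterol, rose with ESA in all 3 states, by 0.69, 0.52 and 0.58, and fell when Fer-1 was added to ESA in all 3 (-0.80, -0.69 and -0.56). Plin4, a lipid droplet coat protein, fell by 1.29 with ESA in uninduced cells and rose by 1.54 with Fer-1.

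Of 9 lipoxygenases and partners 4 passed the filter, and 1, Alox5ap (the partner protein of 5-lipoxygenase), rose by 0.62 with ESA in uninduced cells and fell by 0.72 with Fer-1. Of 7 NADPH oxidase genes 4 were tested, and Cybb, the catalytic subunit of the phagocyte oxidase, rose by 0.79 and fell by 0.86 in the same contrasts. The summed level of 4 macrophage markers was 11.4 to 27.7 CPM in uninduced and 3.85 to 47.8 CPM in induced libraries, and its part in these values was not tested. Of 8 tested genes of ether lipid synthesis, Pex19, a peroxisome import factor, was lower with ESA in uninduced cells (-0.36) and higher after H2O2 and etoposide (0.37 and 0.37). Among 10 phospholipases A2 and thioesterases 1 was higher and 1 lower with ESA in uninduced cells, and likewise when Fer-1 was added. These counts are near the 19.8% and 20.1% of all genes. Of these, Pla2g6 rose by 0.47 with ESA and fell by 0.56 with Fer-1. In senescence 2 were higher and 1 lower with either inducer, beside 17.5% and 17.7% of all genes. Pla2g15, the lysosomal phospholipase A2, rose by 0.75 and 0.71, and Acot13 by 0.60 and 0.65. The lists gave 47 named calls in contrasts within a state, and 0 of these passed without the block.

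Genes whose 15 group means of log2(CPM + 1) ran closest to those of a member are given as a description, since the groups share preparations. Acsl3 ran with Idi1, an isomerase of cholesterol synthesis, and Abhd18 (Pearson r of 0.964 for each over 15 group means). Cyb5r1 ran with Eif6 (0.975) and Tfe3, a transcription factor of lysosomal genes (0.969), and Por with Tes and Adgre5 (0.975 each). Acsl5 ran with the ribosomal protein gene Rpl5 (0.99) and Ssrp1 (0.989), Acsl4 with Naa50 (0.975) and Tnpo1 (0.974), and Acsl1 with Rab3il1 (0.951) and Dgka (0.937). The closest genes to Lpcat3, Myd88 and Aldh5a1, reached 0.796 and 0.794. Lpcat3 overlaps Emg1 on the opposite strand, with 39610 counts to 36661 of Lpcat3.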

How the data were processed

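The deposited table holds raw read counts per gene, which the authors made from stranded total RNA libraries; the submitters' processing notes name FastQC, HISAT2 2.1.0, featureCounts, edgeR and GRCm38, without settings. The annotation and strand setting used for counting are not given in the sources used here.

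From these counts, genes were kept with filterByExpr (16194 of 57010, with 99.949% of counts), scaled with TMM and tested with edgeR 4.0.16 (R 4.3.3) by the quasi-likelihood test with Benjamini-Hochberg adjustment over all tested genes, at a threshold of 0.05. Contrasts within a state and differences between responses used replicate number within state as a block (24 residual degrees of freedom). Vehicle cells of different states were compared without it (30). That fit treats all 45 libraries as independent, although libraries of 1 preparation deviated together, so its p-values and intervals overstate the number of independent units. From the vehicle libraries alone, with 1 library per preparation, the count of senescence calls of members stayed at 4. The numbers come from the deposited grouping sheet, which lists a repeat number across the 5 treatments of each state; same-number libraries had r of 0.346 to 0.905 within states and different-number libraries at most 0.248. Between uninduced and induced cells same-number r was -0.306 to 0.0622. The p-values of the fit with the block measure the spread between libraries that is left once preparation differences are taken out. Those of the fit without it measure the whole spread between libraries of a group. Errors given beside log2 fold changes are SE, and 95% intervals use them with the residual degrees of freedom.

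No library was a copy of another: the chi-square per gene was 11 or more in the 45 pairs within groups. On data simulated for ESA against vehicle in uninduced cells over 16194 genes, 58% of log2 changes of 0.5 and 100% of changes of 1 were recovered. The simulation changed 100 genes at each size and called 163, against 3213 in the real contrast. Recovery in the real data can therefore differ. Alternatives were median-ratio scaling, no filter, fits with the block left out or, for senescence, added, fits of the compared groups alone, DESeq2 1.42.0 and leaving out each library, the last with the genes and dispersion trend of the full fit. Likeness used the 2 genes of highest Pearson r with at least 2 CPM in a group; list genes were named when among the 3 called genes of their list with the largest change and at least 2 CPM. The members, lists and rules were chosen with earlier results of these data known.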

Additional observations from a re-analysis of the deposited data

How the results depend on the processing

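No called member changed direction under any alternative. Counts of member calls over the 3 states were as follows. ESA against vehicle gave 4, with 0 without the replicate block, 2 from the compared groups alone and 2 to 5 when 1 library was left out. ESA-Me against vehicle gave 3, with 0 without the replicate block, 2 with median-ratio scaling or with no filter on low counts, and 0 to 4 when 1 library was left out. Fer-1 added to ESA gave 3, with 1 without the replicate block, 6 with no filter on low counts, 5 with DESeq2 and 2 to 4 when 1 library was left out. Fer-1 added to ESA-Me gave 2, with 0 without the replicate block, 6 from the compared groups alone, 4 with DESeq2 and 0 to 3 when 1 library was left out. ESA-Me plus Fer-1 against vehicle gave 0, with 1 with no filter or DESeq2 and 0 to 3 when 1 library was left out. ESA plus Fer-1 against vehicle gave 0 in every setting. The ESA response difference gave 0, with 0 to 1 when 1 library was left out, and the ESA-Me response difference gave 0 in every setting. The senescence comparisons gave 4, with 2 when a replicate block was added to the vehicle libraries, 5 with DESeq2 and 3 to 5 when 1 library was left out. Etoposide against H2O2 gave 0 in every setting, none of which paired these states alone. With that added block Acsl3 after H2O2 (adjusted p = 0.0575, edgeR) and Acsl5 after etoposide (0.0664) no longer passed. Leaving out etoposide vehicle replicate 3 moved the count of all genes called with ESA-Me in etoposide-induced cells from 46 to 3357. The cause of these changes was not tested. With 3 libraries per group, log2 changes near 0.5 can be missed, and the low counts of Acsl6 allow no comparison.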
